A study of Drosophila melanogaster with 31 samples.

Results

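The X chromosome carried 1204 of the 7520 H3K9me3 peaks in the study's peak lists, taken as every peak listed on chromosome X and none on the separate heterochromatin sequence XHet. Of these, 514 stood among the 3497 peaks of cells depleted of Nxf2 (14.7%) and 690 among the 4023 peaks of cells depleted of Panx (17.2%). The cells were OSC, ovarian somatic cells of *Drosophila melanogaster*, a line of follicle cell origin kept in culture at 26 degrees C. Knockdown (KD) was by transfected siRNA, against Nxf2 in one group and against Panx in the other. Each group had 2 H3K9me3 chromatin immunoprecipitation samples and 1 input, within a series of 31 samples that also covered RNA and crosslinked RNA. Each knockdown had 1 list, merged over its replicates per the file names, so no difference between the lists has a replicate check and no test compares them. H3K9me3 in control cells was not analysed here, so the peaks describe where the mark was found in the depleted cells and not what was lost or kept. The degree of depletion and marker genes of the cell line were not analysed here.

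H3K9me3 is a histone mark of silent chromatin. In fly ovaries the protein Piwi carries small RNAs (piRNAs) that pair with nascent transposon RNA, and the mark is then placed on the chromatin around it. Panx and Nxf2 work in one complex downstream of Piwi. The X chromosome has a particular place in this pathway, since flamenco, the main piRNA source of follicle cells, lies close to its centromere and consists largely of old transposon fragments. The mark also covers centromere-proximal chromatin by routes that do not need piRNAs. The lists set side by side the landscapes of the mark on X in cells depleted of either partner.

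Coordinates are on the dm3 build, counted from 1, with X taken to end at the last peak, 22.4 Mb from its distal end. The score of a peak is the peak caller's own value. It rises with sequencing depth as well as with enrichment, so its size is not compared between lists and ranks are within a list only. Score classes below use the same limits in each list, and a class need not mean the same enrichment in both. The depth behind the lists is unknown.

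The landscapes along X resembled each other. Nxf2-KD peaks covered 985 kb, or 4.40% of X, and Panx-KD peaks covered 1219 kb, or 5.44%. Both lists were sparse along most of the arm and dense toward the centromere. In bins of 1 Mb the median was 17 peaks in Nxf2-KD cells, with a range of 4 to 79, and 20 peaks in Panx-KD cells, with a range of 3 to 114. The bin from 21 to 22 Mb held the most peaks in both lists, 79 and 114, and the incomplete last bin held 56 and 96. Going distally, the bin from 20 to 21 Mb still had 49 and 78 peaks, and the bin from 19 to 20 Mb had 23 and 34.

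A smaller accumulation lay at the other end of the chromosome. The bin from 0 to 1 Mb held only 25 Nxf2-KD and 29 Panx-KD peaks, but they covered 96.3 and 106 kb, against bin medians of 29.4 and 37.6 kb. The next bin, from 1 to 2 Mb, had 30 Nxf2-KD peaks and 20 Panx-KD peaks, with 77.0 and 73.3 kb covered. An interstitial accumulation from 4 to 5 Mb held 39 and 56 peaks. Few peaks lay from 9 to 10 Mb, with 4 and 3, and from 2 to 3 Mb, with 4 and 6. The least covered bin was that from 8 to 9 Mb in the Nxf2-KD list (6.82 kb) and that from 9 to 10 Mb in the Panx-KD list (8.79 kb). The longest stretches without a peak in either list were chrX:6925052-7605450 (680 kb), chrX:15705018-16305833 (601 kb) and chrX:9265623-9693308 (428 kb). Across the 23 bins the covered lengths of both lists had a Spearman rho of 0.97 and the peak counts 0.94, as a description of bins that share the genome, its repeats and its mappability.

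**Figure D1:**
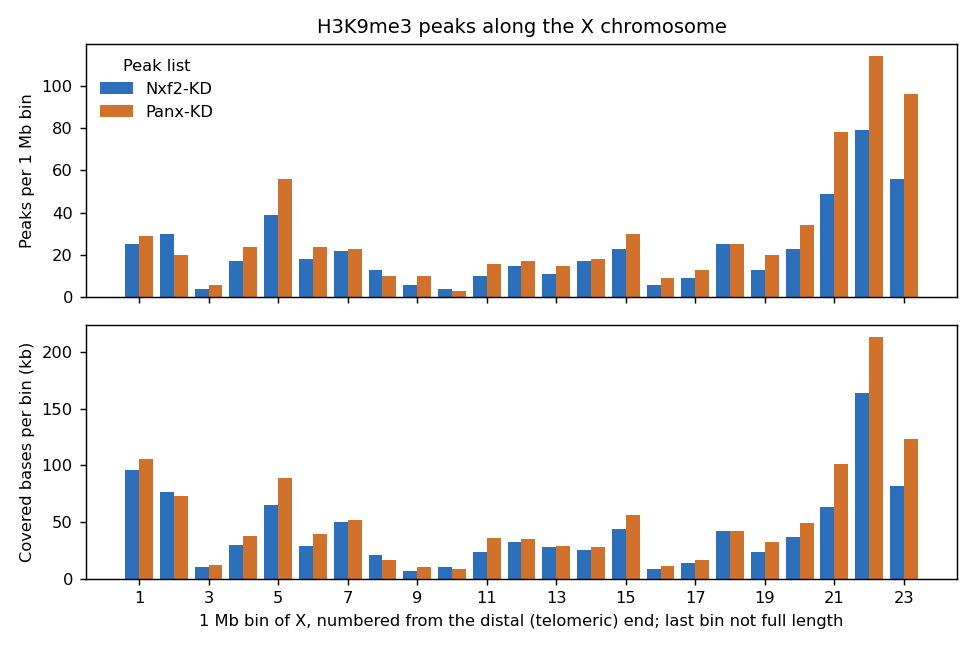
Number of H3K9me3 peaks (top) and kb they cover (bottom) in each 1 Mb bin of X, by peak start, in the merged Nxf2-KD (blue) and Panx-KD (orange) lists. Bins are numbered from the distal end, so bin 22 is the one from 21 to 22 Mb, with 79 and 114 peaks, and bin 10 holds 4 and 3.

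Most Nxf2-KD peaks on X were also marked in Panx-KD cells, while the reverse held for fewer. Of the 514 Nxf2-KD peaks, 433 (84.2%, exact 95% binomial interval 80.8 to 87.3%) shared at least 1 bp with a Panx-KD peak. Over all chromosomes the share was 89.0%. Of the 690 Panx-KD peaks, 435 (63.0%, 59.3 to 66.7%) shared at least 1 bp with a Nxf2-KD peak, and over all chromosomes the share was 76.7%. Peaks of the same widths placed evenly at every position of X would by arithmetic touch the other list in 9.26% and 7.23% of cases. Intervals here cover counting error only and treat peaks as independent, which neighbours on a chromosome are not. The lists differ in length, and with only the 514 highest-scoring Panx-KD X peaks the shares were 76.1% and 75.3%, which are bound to be alike in lists of equal length. In bases, 811 kb were marked in both lists, 174 kb in the Nxf2-KD list only and 408 kb in the Panx-KD list only. The part in both was 82.4% of the Nxf2-KD bases and 66.5% of the Panx-KD bases.

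The X shares lay beside those of the autosome arms as follows. Among Nxf2-KD peaks 87.3% were shared on 2L, 89.1% on 2R, 91.1% on 3L, 85.5% on 3R and 77.8% on the small chromosome 4, against 84.2% on X. Among Panx-KD peaks 75.1% were shared on 2L, 75.9% on 2R, 79.3% on 3L, 71.7% on 3R and 74.4% on chromosome 4, against 63.0% on X. The X value was thus the lowest of these 6 for the Panx-KD list, and for the Nxf2-KD list only chromosome 4 was lower. The Nxf2-KD and Panx-KD lists held 514 and 690 peaks on X, 363 and 421 on 2L, 485 and 565 on 2R, 460 and 503 on 3L, and 255 and 300 on 3R. The lists thus differed most in length on X, and a longer list can reach only a lower share where peaks pair 1 to 1. With the 514 highest-scoring Panx-KD X peaks the Panx-KD share on X was 75.3%. No such value was worked out for the other chromosomes, so lower sharing is not called a trait of X. X peaks were also the narrowest of the 6 by median in both lists, 1311 and 1179 bp, where the arms of chromosomes 2 and 3 ranged from 1468 to 1759.5 bp in the Nxf2-KD list and from 1316 to 1617 bp in the Panx-KD list. X peaks had the lowest median score of the 6 as well, 97.1 in the Nxf2-KD list and 107 in the Panx-KD list. The other chromosomes ranged from 115 to 135 and from 119 to 153. Whether the lower sharing and widths on X go with these lower scores, or the sharing with the list lengths, was not tested. No test of these differences was made, since chromosomes and peaks are not replicates.

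Sharing on X followed the score. Shares by score class were not worked out over all chromosomes, so whether the pattern is particular to X is unknown. Of the 116 Nxf2-KD X peaks with a score of at least 200, every one shared a base with a Panx-KD peak: 82 of 82 with scores from 200 to 500 and 34 of 34 above. The share was 94.2% (129 of 137) for scores from 100 to 200, 79.8% (79 of 99) from 75 to 100 and 67.3% (109 of 162) from 50 to 75. In the Panx-KD list 95.1% of peaks with scores of 500 and over (58 of 61) and 96.6% from 200 to 500 (115 of 119) were shared. Below that the share was 74.1% (143 of 193), then 53.2% (67 of 126), and 27.2% (52 of 191) for the lowest scores. The lowest score in either list was 50.01, so peaks in the lowest class lay just above the value under which the lists hold none. Of the single-list peaks 90.1% in the Nxf2-KD list (73 of 81) and 77.6% in the Panx-KD list (198 of 255) scored below 100, while 43.4% and 27.4% of the shared ones did.

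**Figure D2:**
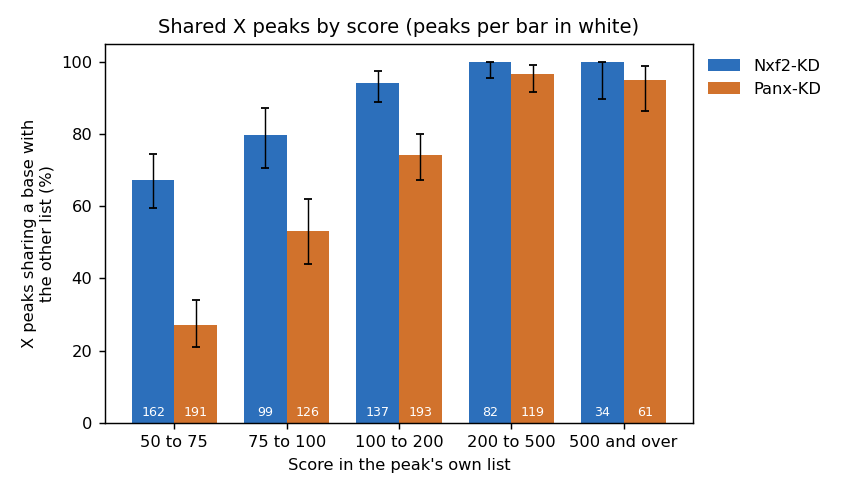
Percent of X peaks that share at least 1 bp with the other list (vertical axis), by score class in the peak's own list (horizontal axis), for Nxf2-KD (blue) and Panx-KD (orange). Bars carry exact 95% binomial intervals (counting error only) and the number of peaks in white; the share runs from 67.3% to 100% and from 27.2% to 95.1% between the lowest and the highest class.

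Some single-list peaks lay close to a peak of the other list. Of the 81 Nxf2-KD peaks without a partner, 32 lay within 1000 bp of a Panx-KD peak and 21 lay more than 10 kb from any. Of the 255 Panx-KD peaks without a partner, 82 lay within 1000 bp of a Nxf2-KD peak and 65 lay more than 10 kb away. Neither a value for even placement nor a share over all chromosomes was worked out for these distances. Chaining the peaks of both lists across gaps of up to 10 kb gave 222 clusters, of which 161 held peaks of both lists, 44 held Panx-KD peaks only and 17 held Nxf2-KD peaks only. Among the single-list clusters, 37 of the 44 and 16 of the 17 were lone peaks. A lone peak cannot hold peaks of both lists, so it always counts as a single-list cluster. The small size of these clusters thus follows in part from the definition, and nothing is concluded from it.

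Widths ranged widely. Nxf2-KD X peaks spanned 469 to 14430 bp, with quartiles of 943, 1311 and 2064 bp, and Panx-KD peaks 378 to 14287 bp, with quartiles of 846, 1179 and 1885 bp. Wider peaks scored higher within each list (Spearman rho 0.80 over 514 and 0.78 over 690 peaks). Peaks of 5000 bp or more numbered 31 in the Nxf2-KD list and held 22.2% of its X bases, and 42 in the Panx-KD list with 23.1%. The Panx-KD list had more narrow peaks: 254 (36.8%) were under 1000 bp, against 151 (29.4%) in the Nxf2-KD list. Of those narrow peaks 39.4% in the Panx-KD list and 72.2% in the Nxf2-KD list were shared, and no such share was worked out over all chromosomes. Shared peaks had median widths of 1513 and 1458 bp in the Panx-KD and Nxf2-KD lists, and single-list peaks 893 and 974 bp.

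**Figure D3:**
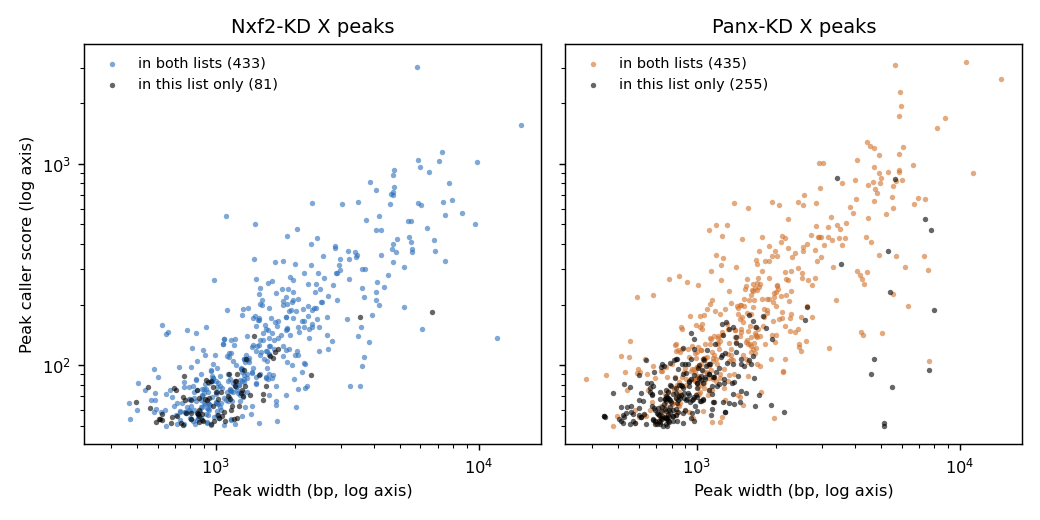
Score against width in bp (both axes logarithmic) for each X peak of the Nxf2-KD list (left) and the Panx-KD list (right); coloured points share at least 1 bp with the other list and black points do not. Black points gather at the lower left, with median widths of 974 and 893 bp, and the Panx-KD panel also holds 10 black points of 5000 bp or more, where the Nxf2-KD panel holds 1.

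Where 1 peak of each list met exactly 1 of the other, which gave 336 pairs, each edge lay close by median. The starts differed by a median of 71 bp and the ends by a median of 80 bp, less than the DNA fragments, which were sheared to about 200 bases per the labels. Both edges lay within 100 bp of each other in 123 pairs (36.6%), so most pairs differed by more at 1 edge or both. The Panx-KD peak was narrower in 159 pairs, wider in 176 and equal in 1, with a median width ratio of 1.01, so the narrower median of the whole Panx-KD list was not seen in these pairs. In 18 pairs the widths differed at least 2-fold. Across the pairs the order of the scores had a rho of 0.76 and the order of the widths 0.81. Other peaks met in groups: 38 Nxf2-KD peaks touched 2 or more Panx-KD peaks, and 37 Panx-KD peaks touched 2 or more Nxf2-KD peaks.

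The strongest X domains stood in both lists, and most lay outside the centromere-proximal region. Of the 10 highest-scoring peaks in each list, all touched a peak of the other, and 7 touched one of the other's top 10. Among the 50 highest, 39 did so, and among the 100 highest, 74 Nxf2-KD and 76 Panx-KD peaks. The first Nxf2-KD peak by score, chrX:6323820-6329631, was 5812 bp wide and scored 3021. Its Panx-KD partner chrX:6323869-6329511 was 5643 bp wide and at rank 2, with a score of 3100, a value repeated exactly in 21 peaks of both lists, of which this is the only one on X. Their starts and ends differed by far less than their width.

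The widest X domain in both lists lay near the distal tip. It was chrX:452284-466713 in Nxf2-KD cells, 14430 bp wide with a score of 1551, and chrX:452345-466631 in Panx-KD cells, 14287 bp wide with a score of 2629. It was at rank 2 of the Nxf2-KD list and rank 3 of the Panx-KD list by score. A domain near 1.7 Mb ranked first in the Panx-KD list, at chrX:1732965-1743546 with a width of 10582 bp and a score of 3195. The Nxf2-KD list had 2 peaks there, the larger being chrX:1733941-1743781 with a width of 9841 bp and a score of 1016, at rank 6.

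Some other leading domains were divided differently in the lists. The Nxf2-KD peak chrX:21061993-21067885 scored 1047 at rank 4 and met 2 Panx-KD peaks, of which chrX:21065010-21071000 scored 1937, also near the top, at rank 5. The Nxf2-KD peak chrX:12824659-12831746 scored 1032 at rank 5, and the Panx-KD peak chrX:12824617-12830521 scored 2275 at rank 4. The lists had 1 peak each at the next domain. The peak at chrX:711349-718610 in Nxf2-KD cells scored 1140 and that at chrX:711885-720092 in Panx-KD cells scored 1504, at ranks 3 and 8. Positions in the order were less alike at chrX:1149240-1158947, a Nxf2-KD peak of 9708 bp with a score of 503 at rank 34, whose main Panx-KD partner chrX:1149254-1158033 scored 1695 at rank 7. The Panx-KD peak chrX:2504466-2510353 scored 1734 at rank 6, while its Nxf2-KD partner chrX:2504468-2511763 scored 646 at rank 20. Among the remaining Nxf2-KD top 10 were chrX:10991286-10997275 (961), chrX:1522070-1528528 (915) and chrX:14310418-14315121 (884), and among the Panx-KD top 10 chrX:10789045-10793492 (1283) and chrX:1522055-1526625 (1226). No gene or transposon annotation of this build was used, so these domains are named by position alone.

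The centromere-proximal region from 21400000, which holds flamenco, was the densest stretch of the chromosome. It makes up 4.46% of X and held 108 of the 514 Nxf2-KD peaks on X (exact interval of the share 17.6 to 24.8%) and 173 of the 690 Panx-KD peaks (25.1%, 21.9 to 28.5%). Peaks covered 19.1% of the region in the Nxf2-KD list and 27.3% in the Panx-KD list, against 3.71% and 4.43% of the rest of X. Per Mb the region had 5.70 times as many Nxf2-KD peaks and 7.17 times as many Panx-KD peaks as the rest. Individual peaks there were not broader: the median width was 1330 bp in the region and 1308 bp outside it in the Nxf2-KD list, and 1114 and 1222 bp in the Panx-KD list. Median scores were 98.8 and 97.0 in the Nxf2-KD list, and 107 on both sides in the Panx-KD list. On the distal side of the boundary the nearest peaks were chrX:21388453-21390478 with a score of 187 (Nxf2-KD) and chrX:21393227-21394478 with 141 (Panx-KD), and on the proximal side chrX:21403913-21404677 with 58.3 and chrX:21402520-21403393 with 101. How the authors treated reads that map to several places is not given in the sources used here, and it bears on a region of repeated transposon sequence.

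In this region nearly the same number of peaks was shared in each list, out of lists of unlike length. The shares were 98 of 108 Nxf2-KD peaks (90.7%, 83.6 to 95.5%) and 101 of 173 Panx-KD peaks (58.4%, 50.7 to 65.8%). Most of the shared peaks, 88 and 94, touched exactly 1 peak, so the longer list is bound to have the lower share. Nothing about the knockdowns is concluded from that contrast. Over all chromosomes the shares were 89.0% and 76.7%. Even placement within the region alone would by arithmetic give 43.9% and 30.6%. Outside the region the shares were 82.5% (335 of 406) and 64.6% (334 of 517). Of the proximal bases 156 kb were marked in both lists, 35.2 kb in Nxf2-KD cells only and 116 kb in Panx-KD cells only.

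The marked DNA of the region fell into clusters separated by bare stretches. The longest bare stretch, without a peak in either list, was chrX:21842971-21979841 (137 kb), followed by chrX:21687400-21759347 (71.9 kb). Of the 5 clusters with most marked bases on X, 3 lay in the region, and the 5 together held 18.6% of all marked bases. The first was chrX:21603090-21687399, where 16 Nxf2-KD peaks covered 46.7% and 26 Panx-KD peaks covered 70.8% of 84.3 kb. All 16 Nxf2-KD peaks were shared, and 17 of the 26 Panx-KD peaks. The second, chrX:22108125-22237083, had 24 and 39 peaks over 129 kb, covering 27.6% and 39.9%. The third lay outside the region at chrX:21003251-21090830, with 23 and 27 peaks that covered 51.7% and 55.2%. The fourth, chrX:21783451-21842970, had 11 and 16 peaks, covering 36.9% and 69.9%. The fifth, also outside it, was chrX:20170514-20260003 with 18 and 24 peaks, covering 31.0% and 44.8%. Coverage was higher in the Panx-KD list in each of the 5, by the most in the first and the fourth. The Panx-KD list also covered more of X as a whole, 5.44% against 4.40%, and clusters were ranked by the bases of either list. A higher Panx-KD coverage in these 5 was thus likely in advance, and nothing is concluded from it.

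At its distal end the first cluster held a block marked in the Panx-KD list alone. The adjoining Panx-KD peaks chrX:21603090-21610442, 7353 bp wide with a score of 531, and chrX:21610462-21616150, 5689 bp wide with a score of 840, met no Nxf2-KD peak. The Nxf2-KD list was empty from the end of its peak at 21588357 to the start of the next at 21619092, a stretch of 30.7 kb in which the Panx-KD list had 3 peaks covering 14.2 kb. Just distal to that stretch, the cluster chrX:21567811-21588373 held 5 Nxf2-KD and 9 Panx-KD peaks covering 33.2% and 48.5%. The next, chrX:21527182-21557665, held 8 Nxf2-KD and 10 Panx-KD peaks covering 60.5% and 61.1%, with 95.3% and 94.3% of the bases in common. In chrX:21567811-21588373 the part in common was 88.5% and 60.5%. Toward the boundary of the region it varied, at 82.5% and 70.5% in chrX:21512925-21515203 and 89.1% and 96.9% in chrX:21501319-21502497. It was 77.5% and 52.1% in chrX:21452802-21469726 and 49.0% and 60.7% in chrX:21421819-21433270. The cluster chrX:21527182-21557665 contained the top proximal peak of both lists, chrX:21533259-21538008 with a score of 927 in Nxf2-KD cells and chrX:21533275-21537984 with 1198 in Panx-KD cells, at ranks 8 and 12 on X.

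At the proximal end of the first cluster lay the second-widest X peak of both lists. Its starts nearly coincided and its ends lay farther apart, at chrX:21672667-21684444 (11778 bp) in Nxf2-KD cells and chrX:21672738-21683913 (11176 bp) in Panx-KD cells. Its place in the order of scores differed: it scored 137 in the Nxf2-KD list, rank 184 of 514, and 896 in the Panx-KD list, rank 24 of 690. Within the 336 pairs it was at ranks 133 and 15. Other pairs shifted more, such as that of chrX:704439-708098 at ranks 72 and 304 and that of chrX:6455314-6456701 at ranks 100 and 297. Among the strongest proximal peaks were also chrX:21651936-21656716 (770), chrX:21825618-21827934 (639), chrX:21466655-21469662 (631) and chrX:21789660-21790753 (553) in the Nxf2-KD list. In the Panx-KD list chrX:21583520-21586534 scored 1006 and met 2 Nxf2-KD peaks.

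The fourth cluster held the highest-scoring single-list peak on X. It was the Panx-KD peak chrX:21821011-21824407, 3397 bp wide with a score of 849 at rank 26, which lay 1210 bp from a shared peak, chrX:21825618-21827934 in the Nxf2-KD list. A second Panx-KD block there, chrX:21801272-21806584, was 5313 bp wide with a score of 368. Of the 7 Panx-KD X peaks with a score of at least 200 and no Nxf2-KD partner, 4 lay in the proximal region. They included all 3 that scored at least 500. Of all Panx-KD X peaks, 26 of 119 with scores from 200 to 500 and 17 of 61 with higher scores lay there. With only 7 peaks the split by region is a description.

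**Figure D4:**
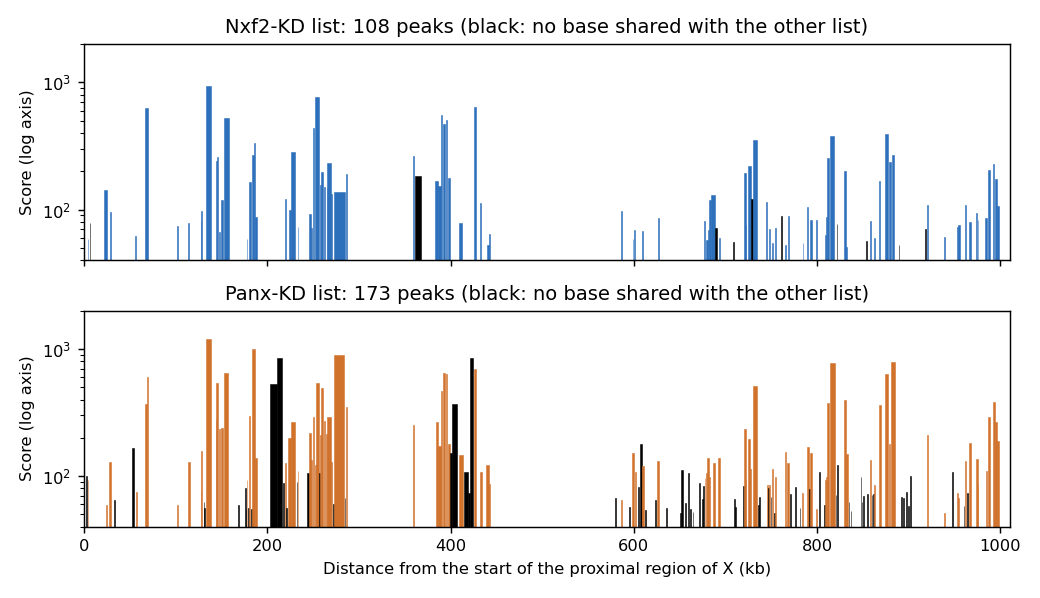
Map of the proximal region of X in the Nxf2-KD list (top) and the Panx-KD list (bottom); each bar spans a peak, horizontally by distance in kb from the start of the region and vertically up to its score (log axis, ranked within a list only), and black bars share no base with the other list. The tallest black bars of the lower panel are the blocks scoring 531, 840, 368 and 849, and the widest black bar of the upper panel scores 183.

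The strongest single-list peak of the Nxf2-KD cells was also proximal. At chrX:21761444-21768098 it was 6655 bp wide with a score of 183 at rank 132, and it was the only Nxf2-KD X peak of 5000 bp or more without a Panx-KD partner. It lay 1088 bp from a Panx-KD peak in a stretch of 23.5 kb without any other. The next 4 by score were chrX:105740-109284 (174), chrX:18891233-18892633 (139), chrX:22128060-22129780 (121) and chrX:9263946-9265622 (117). They lay 450, 21, 36 and 367759 bp from the nearest Panx-KD peak, so only the last stood far from any Panx-KD peak.

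Outside the proximal region the Panx-KD list had 7 wide peaks of its own, of 5000 bp or more. The highest-scoring was chrX:4990366-4998132, 7767 bp wide with a score of 471 at rank 68, in a stretch of 273 kb that held no Nxf2-KD peak and only 1 other Panx-KD peak. Others scored lower. The peak chrX:14445708-14453366 was 7659 bp wide with a score of 95.0, 130586 bp from the nearest Nxf2-KD peak, and chrX:5821182-5826316 was 5135 bp wide and the last of the 690 by score. The peak chrX:10242639-10250586, 7948 bp wide with a score of 189, lay 7319 bp from a Nxf2-KD peak. These 3 peaks were chosen for their width after their values were seen.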

How the data were processed

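Chromatin of OSC was sonicated to about 300 bases and immunoprecipitated with 3 micrograms of antibody against H3K9me3, and the DNA was sheared to about 200 bases for the libraries, per the labels' protocols. The deposited peak lists give a position and a score per peak, with no header. Per the submitters' processing notes the tools were cutadapt, Bowtie 1.0 and MACS 1.4.2 on dm3, with no role or order given. The call threshold, and whether reads or peaks were merged over replicates, is not given in the sources used here. Peaks within a list do not overlap. Depth is unknown.

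Peaks were compared with Python 3.11.15, NumPy 2.4.6, pandas 2.3.3 and SciPy 1.17.1, counting a shared peak at an overlap of 1 bp. Even placement was worked out from widths and positions without drawing. The arithmetic was tested on simulated data. Intervals are exact Clopper-Pearson (95%). Named peaks are the 10 highest-scoring and 5 widest per list, the 5 highest-scoring single-list and the 5 highest-scoring proximal ones, and the 5 clusters with most marked bases; a few others are named as chosen later. Members and lists were chosen with earlier results of these data known. The element tables carry no positions and were not used.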

Additional observations from a re-analysis of the deposited data

How the results depend on the processing

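The lists are 1 merged list per knockdown, so leaving out a replicate was not possible, and No paired analysis was possible because the files hold no value per replicate. Of 52 values over 12 results, 25 stayed within their interval (counts and lengths within 1.5 times) and 27 moved, and the Panx-KD share of shared peaks was below the Nxf2-KD share in all settings listed here. Requiring 50% of a peak to be covered gave shares of 79.8% (Nxf2-KD) and 59.3% (Panx-KD), reciprocal overlap of 50% gave 69.5% and 51.7%, and a distance of up to 1000 bp gave 90.5% and 74.9%. With the Panx-KD list reduced to its 514 highest-scoring X peaks, a choice made after seeing the data, the shares were 76.1% and 75.3%, and shares in lists of equal length are bound to be alike. Score limits were applied to both lists, so a peak could lose its partner. A score of at least 100 left 253 and 373 peaks with median widths of 2041 and 1694 bp. A score of at least 200 left 116 and 180 peaks with medians of 3394 and 2726 bp, 448 and 604 kb, 80 and 107 clusters, and shares of 90.5% and 62.2%. Joining peaks less than 500 bp apart gave medians of 1507 and 1378 bp. A proximal start at 20000000 gave proximal shares of 35.8% and 41.7%, and one at 22000000 gave 10.9% and 13.9%. Outside these, the proximal shares stayed between 20.9% and 25.2%. Stricter scores and other boundaries change these values by construction, through fewer peaks or a region of another length.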

Other observations

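XHet, unplaced heterochromatin assigned to X, was left out of the counts above. It held 26 Nxf2-KD peaks covering 58.0 kb and 24 Panx-KD peaks covering 55.6 kb. Of these, 22 (84.6%, exact interval 65.1 to 95.6%) and 20 (83.3%, 62.6 to 95.3%) shared a base with the other list.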
